A study of Homo sapiens with 4 samples.

Results

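MYC, E2F5, CCND1, CCND2, CDK6, CDC25A and CDC34 are 7 cell cycle genes known as targets of the let-7 microRNA family, and they were followed clone by clone in A549 cells, a human lung adenocarcinoma line. They were chosen by name, with earlier results of these data known. Every probe with exactly 1 gene symbol in the platform annotation and 1 of these symbols was taken, which gave 16 of 26629 probes and 7 of 12483 genes. CDK6 was represented by 8 cDNA clones, E2F5 by 3, and the other 5 genes by 1 each. On each of 4 two-colour cDNA arrays a culture of A549 cells transfected to overexpress let-7a-3 was compared with a culture of parental A549 cells, both grown in DMEM with fetal calf serum and otherwise untreated. Per the design text there were 4 cultures of each kind, so each array holds a different pair. RNA was amplified by 1 round of T7 transcription before labelling. The control was the parental line, so transfection and let-7a-3 cannot be told apart. No source used here says whether the transfected cultures came from 1 transfected line or several, and p-values cover only the spread between these cultures.

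The microRNA acts by pairing its seed with sites in messenger RNAs, which lowers their translation and often their amount. The 7 genes sit on the path into S phase. Cyclins D1 and D2 (CCND1, CCND2) bind and activate the kinase CDK6, which phosphorylates retinoblastoma family proteins. E2F5 is a transcription factor that works with those proteins, mostly as a repressor, and MYC is a transcription factor that drives growth and cell cycle entry. CDC25A is the phosphatase that removes inhibitory phosphates from cyclin-dependent kinases. CDC34 is the ubiquitin-conjugating enzyme that serves SCF ligases, which mark inhibitors of those kinases for degradation.

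The sequences below are those of the let-7a-3 hairpin and of let-7 mature arms. They were taken from RefSeq (GRCh38.p14) and were not measured on these arrays. The let-7a-3 hairpin is encoded at chr22:46112749-46112822 on the plus strand, and its mature 5p arm at chr22:46112752-46112773. The same mature arm, let-7a-5p, is given by 3 genes. Capitals mark the seed, bases 2 to 8 of the mature arm.
let-7a-3 hairpin: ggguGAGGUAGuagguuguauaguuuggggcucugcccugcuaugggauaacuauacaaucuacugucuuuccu
hsa-let-7a-5p: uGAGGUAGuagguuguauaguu
hsa-let-7b-5p: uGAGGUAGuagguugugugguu
hsa-let-7d-5p: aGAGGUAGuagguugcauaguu
hsa-let-7i-5p: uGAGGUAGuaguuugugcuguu
All 8 let-7 5p arms of the table, let-7a to let-7g and let-7i, share the seed GAGGUAG, whose reverse complement in a target is CUACCUC. Outside the seed let-7b-5p and let-7d-5p differ from let-7a-5p at 2 positions each and let-7i-5p at 4. Target sites in the 7 messenger RNAs, and the stretch of each messenger that a clone covers, were not analysed here.

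The values are log ratios as the authors deposited them. By the numbered RNA sources in the labels, arrays 1 and 3 had 1 dye orientation and arrays 2 and 4 the other. No label or header names the base of the logarithm or the channel in the numerator, or says whether all arrays were turned the same way. A positive value can therefore not be assigned to the let-7a-3 or the parental culture, and no fold is given. For this reason each clone was described by 2 components: a shared one, the mean log ratio over all 4 arrays, and an alternating one, which follows the dye orientation and is written with the sign of arrays 1 and 3. Either may hold the let-7a-3 effect, and the other then holds the dye effect. Over all probes the arrays correlated with r = 0.43 (arrays 1 and 3) and 0.56 (arrays 2 and 4) within an orientation and between -0.16 and 0.055 across orientations, as a description over probes. With 0 probes annotated to let-7a-3 itself, the overexpression was not analysed here, and without intensities neither were the levels of marker genes. Of the marker genes 1 of 4 measured epithelial ones (KRT8, 0.39 in the shared component, limma adjusted p = 0.00698), 0 of 4 fibroblast ones and 0 of 2 blood cell ones passed in the shared component, where 3.04% of all genes did, and none passed in the alternating one, where 3.29% did. Below an unadjusted p of 0.05 in limma were 1 epithelial, 1 fibroblast and 0 blood cell markers in each component, against 14.6% of all genes in the shared and 25.6% in the alternating one.

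Among the 16 clones, 1 of the 8 CDK6 clones and 1 of the 3 E2F5 clones had a shared component past an adjusted p of 0.05, both with positive values. This is 2 of 16, where 2.07% of all probes passed and 1.12% with a positive value. A different E2F5 clone passed in the alternating component with a positive value, 1 of 16, where 4.28% of all probes passed and 2.81% with a positive value. At an unadjusted p under 0.05 were 4 of 16 clones in either component, where 12.5% of all probes were in the shared one and 25.2% in the alternating one. The single clones of MYC, CCND1, CCND2, CDC25A and CDC34 passed in neither. In the shared component 9 clones were positive and 7 negative, with a median of 0.017, against a median of 0.0081 over all probes. Of the alternating components 4 were positive and 12 negative, with a median of -0.044, against -0.0097 over all probes. On all 4 arrays 5 of the 16 clones kept 1 sign, and 14.1% of all probes did.

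**Figure D1:**
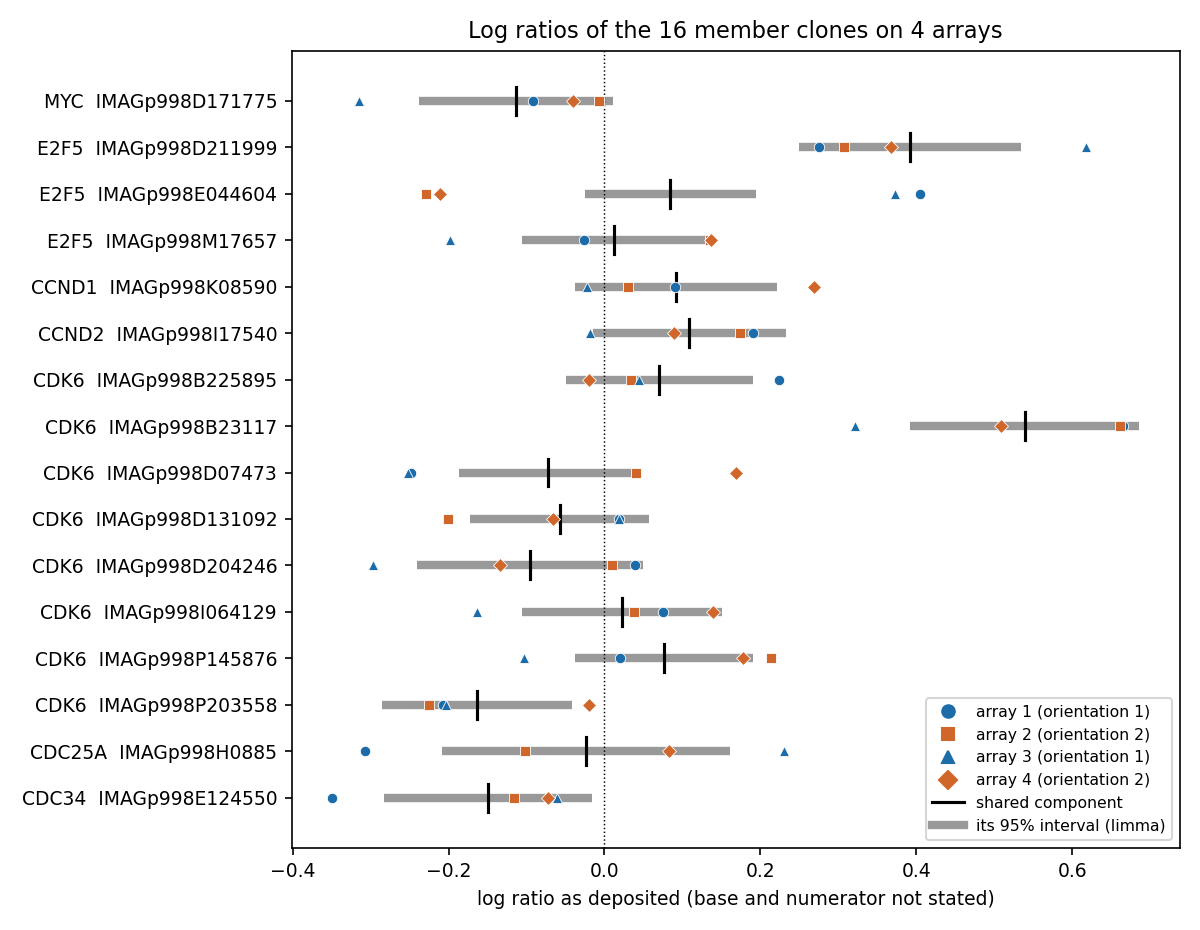
Log ratio as deposited (x axis, base not stated) of each of the 16 clones on 4 arrays. Symbols are arrays (blue for arrays 1 and 3, orange for 2 and 4), the black tick is the shared component and the grey bar its 95% interval in limma. CDK6 clone IMAGp998B23117 (0.32 to 0.66) and E2F5 clone IMAGp998D211999 (0.28 to 0.62) lie above 0 on every array, and the blue and orange symbols of E2F5 clone IMAGp998E044604 lie on opposite sides of 0.

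The E2F5 clones gave 3 different patterns. Clone IMAGp998D211999 stood at 0.28, 0.31, 0.62 and 0.37 on arrays 1 to 4. All arrays were positive and array 3 was the highest, so that the dye orientations overlapped. Its shared component was 0.39 ± 0.16 (SD, n = 4; 95% interval 0.25 to 0.53; limma adjusted p = 0.0138), and its alternating component was 0.055 (adjusted p = 0.618). The call was lost without array 4 (0.38, adjusted p = 0.0658) and remained without any 1 of the other 3 arrays.

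Clone IMAGp998E044604 of E2F5 stood at 0.40 and 0.37 on arrays 1 and 3 and at -0.23 and -0.21 on arrays 2 and 4. The orientations did not overlap, and arrays of 1 orientation lay closer together than in most probes: the residual SD, the spread between arrays of the same orientation, was 0.019, the 2.86th percentile of all probes. The alternating component was 0.30 ± 0.099 (SD, n = 4; interval 0.19 to 0.41; limma adjusted p = 0.0202), and the shared one 0.084 (adjusted p = 0.542). Leaving out array 2 (adjusted p = 0.114), array 4 (0.109) or the shared term of the fit (0.0717) ended the call.

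The remaining E2F5 clone, IMAGp998M17657, stood at -0.026, 0.14, -0.20 and 0.14. Its orientations did not overlap either, but with the opposite sign: arrays 2 and 4 were positive here and negative in IMAGp998E044604. Neither the alternating component (-0.12, limma adjusted p = 0.181) nor the shared one (0.012, adjusted p = 0.951) passed.

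The MYC clone stood at -0.092, -0.0064, -0.31 and -0.040. All 4 values were negative, with array 3 far below the others. The shared component was -0.11 ± 0.14 (SD, n = 4; interval -0.24 to 0.011; limma adjusted p = 0.452) and the alternating one -0.090 (adjusted p = 0.332). The interval covered 0 in this fit over probes. In the fit over genes the same 4 values gave an interval of -0.22 to -0.0017 (limma adjusted p = 0.333).

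The D-type cyclins had positive shared components that did not pass. CCND1 stood at 0.091, 0.031, -0.022 and 0.27, with array 4 the highest, and had a shared component of 0.092 ± 0.13 (SD, n = 4; interval -0.037 to 0.22; limma adjusted p = 0.573). CCND2 stood at 0.19, 0.17, -0.018 and 0.089. Its shared component was 0.11 ± 0.096 (interval -0.015 to 0.23; adjusted p = 0.473). Both cyclins were positive on arrays 1, 2 and 4 and slightly negative on array 3. Their alternating components were -0.058 and -0.023.

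CDK6, the kinase that both cyclins activate, had 1 clone far from the other 7. Clone IMAGp998B23117 stood at 0.66, 0.66, 0.32 and 0.51. It was positive on every array, with array 3 the lowest and no separation of the orientations. The shared component was 0.54 ± 0.16 (SD, n = 4; interval 0.39 to 0.69; limma adjusted p = 0.0025), which ranked 157 of 26629 probes by moderated statistic. Leaving out 1 array at a time gave 0.45 to 0.62, and each of these fits passed.

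The other 7 CDK6 clones had shared components from -0.16 to 0.077, 3 positive and 4 negative, and none passed in limma (1 had an unadjusted p below 0.05). The lowest was IMAGp998P203558, at -0.21, -0.23, -0.20 and -0.019. It was negative on every array, close together on arrays 1 to 3 and near 0 on array 4. Its shared component was -0.16 ± 0.097 (SD, n = 4; interval -0.29 to -0.042; adjusted p = 0.225). Next came IMAGp998D204246 (-0.095), IMAGp998D07473 (-0.073) and IMAGp998D131092 (-0.057). IMAGp998I064129 (0.022), IMAGp998B225895 (0.070) and IMAGp998P145876 (0.077) were positive.

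Some CDK6 clones followed the dye orientation without passing. IMAGp998D07473 stood at -0.25 on both arrays 1 and 3 and at 0.040 and 0.17 on arrays 2 and 4, with no overlap of the orientations. Its alternating component of -0.18 was the largest in size of the 8 clones (limma adjusted p = 0.0772). IMAGp998P145876 had the same pattern, with 0.019 and -0.10 on arrays 1 and 3 and 0.21 and 0.18 on arrays 2 and 4 (alternating component -0.12, adjusted p = 0.184). IMAGp998D131092 ran the other way, with 0.018 and 0.019 on arrays 1 and 3 and -0.20 and -0.067 on arrays 2 and 4 (alternating component 0.076, adjusted p = 0.374). Of the 8 clones 6 were negative and 2 positive in this component.

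CDC25A had values that differed widely within a dye orientation. It stood at -0.31, -0.10, 0.23 and 0.082, so that arrays 1 and 3, which share an orientation, lay at opposite ends. Its residual SD of 0.28 was at the 98th percentile of all probes. The shared component was -0.024 ± 0.23 (SD, n = 4; interval -0.21 to 0.16; limma adjusted p = 0.936). CDC34 stood at -0.35, -0.12, -0.060 and -0.072, negative on every array and lowest on array 1. Its shared component was -0.15 ± 0.14 (interval -0.28 to -0.016; adjusted p = 0.33).

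CDC25A and CDC34 also stood out in how often their values recurred, a measure chosen after the values were seen. On array 1 the value of CDC25A was exactly equal on 40 probes, and that of CDC34 on 30, itself included. On arrays 2, 3 and 4 the CDC25A values occurred on 12, 4 and 5 probes and the CDC34 values on 8, 8 and 5. The called CDK6 clone and both called E2F5 clones, as well as MYC, had values that no other probe held on any array. So did 2 uncalled CDK6 clones, IMAGp998D07473 and IMAGp998P145876, while the array 1 value of CDK6 clone IMAGp998D131092 occurred on 25 probes. Exact repeats were common in the table: 71.5% of the probes on array 1, and between 51.9% and 55.4% on the other arrays, shared their value with another probe. Without intensities, the part of spot brightness in this was not tested.

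**Figure D2:**
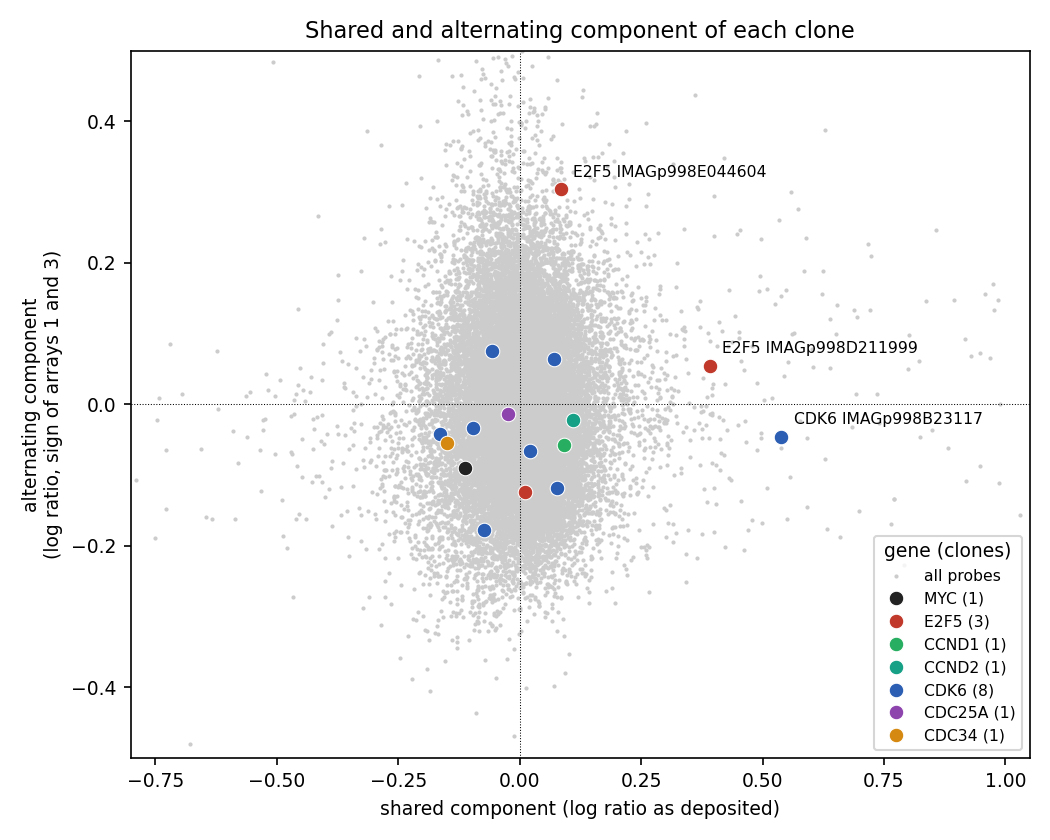
Shared component (x axis) against alternating component (y axis) in log ratios as deposited, for all probes (grey) and the 16 clones (coloured by gene); 75 probes lie outside the plotted range. The 2 clones called in the shared component, at 0.54 (CDK6) and 0.39 (E2F5), lie to the right of the other clones, and the E2F5 clone at 0.30 above them.

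Clones annotated to the same gene were compared directly, as the log ratio of a clone minus the mean of the gene's other clones on the same array, which tests whether clones differ by more than the spread between arrays. CDK6 clone IMAGp998B23117 exceeded the mean of the other 7 by 0.68, 0.67, 0.46 and 0.47 on arrays 1 to 4. The 4 differences were all positive, and the mean of the other 7 clones lay between -0.14 and 0.035. The difference was 0.57 ± 0.12 (SD, n = 4; interval 0.41 to 0.73; limma adjusted p = 0.000875 over 13568 clones of genes with 2 or more). It was the 1 of 11 CDK6 and E2F5 clones to pass in the shared component, where 1.96% of all clones tested did and 0.973% with a positive value.

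E2F5 clone IMAGp998D211999 exceeded the mean of the gene's other 2 clones by 0.086, 0.35, 0.53 and 0.40, also positive on every array. The difference of 0.34 ± 0.19 (SD, n = 4) did not pass (interval 0.17 to 0.52; limma adjusted p = 0.0508). By dye orientation the other E2F5 clones differed from the rest of their gene in opposite directions, IMAGp998E044604 by 0.34 (adjusted p = 0.0173) and IMAGp998M17657 by -0.30 (adjusted p = 0.033). These are 2 of 11, against 6.86% of all clones tested, 3.66% with positive and 3.2% with negative values. The differences within a gene cancel out by construction, since each clone enters the mean that the others are compared with. The opposite signs are therefore partly built in, and the 2 calls are not independent. Without array 2 and without array 4 the count fell to 0, and without array 3 to 1. In the shared component the count was 3 without array 1 and 2 without array 3. The share of all clones tested that passed in these fits is not given here. The counts are therefore not read as a result about these clones.

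**Figure D3:**
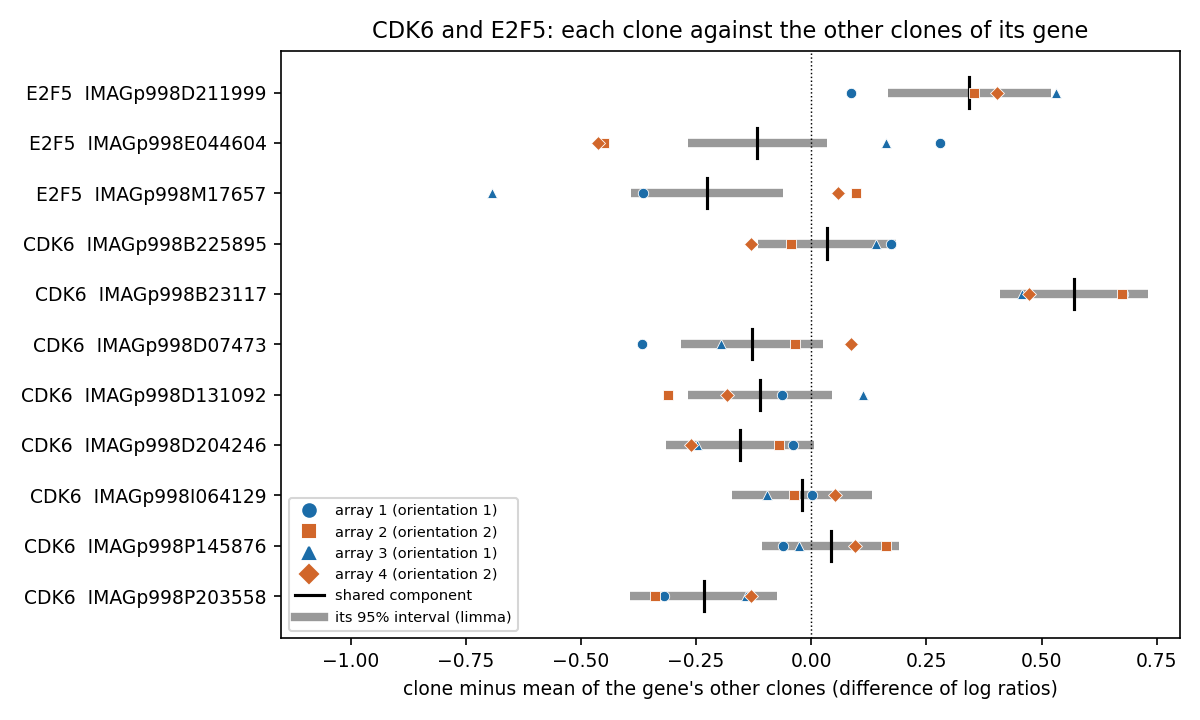
Difference between each CDK6 or E2F5 clone and the mean of the other clones of its gene (x axis, difference of log ratios) on the 4 arrays (symbols), with the shared component (tick) and its 95% interval (bar). CDK6 clone IMAGp998B23117 lies between 0.46 and 0.68 on all arrays, and the E2F5 clones IMAGp998E044604 and IMAGp998M17657 split by dye orientation in opposite directions. Differences within a gene are linked, since each clone enters the mean that the others are compared with.

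In the shared component the spread between clones was wide for both genes. For CDK6 it includes the called clone at 0.54, with the other 7 from -0.16 to 0.077. The SD of the shared component over the 8 CDK6 clones was 0.22 and over the 3 E2F5 clones 0.20, the 98.4th and 97.6th percentile of 1967 genes with 3 or more clones, whose median was 0.065. For the alternating component the SD was 0.085 for CDK6, at the 39.8th percentile, and 0.22 for E2F5, at the 96.5th, with a median of 0.097. Among genes with 3 or more clones and any called clone, exactly 1 called clone was the usual case. Of the 1967 genes, 105 had a clone called in the shared component. Of these, 97 (92.4%) had exactly 1, and in 1 gene all clones were called. Which clone carries the sequence named in the annotation was not tested.

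Averaged over clones, none of the 7 genes passed in limma in the shared component, where 3.04% of all genes did, nor in the alternating one, against 3.29%. At an unadjusted p under 0.05 were 3 of 7 in the shared component (14.6% of all genes) and 0 of 7 in the alternating one (25.6%). E2F5 stood highest, at 0.22, 0.071, 0.26 and 0.098 on the 4 arrays and 0.16 ± 0.093 in the shared component (SD, n = 4; interval 0.071 to 0.25; adjusted p = 0.0807). CCND2 (0.11), CCND1 (0.092), CDK6 (0.040), CDC25A (-0.024), MYC (-0.11) and CDC34 (-0.15) followed, and the interval of each gene overlapped that of its neighbour in this order. The CDK6 average was 0.073, 0.071, -0.079 and 0.094, with array 3 apart from the others.

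The gene averages depended on how clones and arrays were combined. With the median of the clones E2F5 passed (0.23, limma adjusted p = 0.0219), while CDK6 was at -0.0022. The median was taken on each array by itself, so for E2F5 it followed no single clone. It was IMAGp998D211999 on array 1, IMAGp998E044604 on array 3 and IMAGp998M17657 on arrays 2 and 4. The share of all genes that passed with the median of clones is not given here. Without array 1 E2F5 (0.17, adjusted p = 0.0342) and MYC (-0.17, adjusted p = 0.0416) passed in the shared component, and MYC also in the alternating one (-0.15, adjusted p = 0.0451). Without array 3, CDC34 (-0.22, adjusted p = 0.00353), CCND2 (0.16, adjusted p = 0.037) and CDC25A (-0.16, adjusted p = 0.0486) passed in the shared component. CDC25A changed sign without array 1 (0.11) and without array 2 (0.022). Fits that leave out an array rest on 1 pair of arrays of the same orientation for their residual spread. Of all genes 6.39% passed in the shared component without array 1 and 11.8% without array 3, and 18.4% in the alternating one without array 1.

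Of 97 other genes listed for the pathways around these 7, 74 were measured under 1 symbol. In the shared component 1 passed with a positive and 2 with negative values, 3 of 74, where 3.04% of all genes passed, 1.63% with positive and 1.41% with negative values. At an unadjusted p under 0.05 were 13 of 74 in the shared component, where 14.6% of all genes were, and 16 of 74 in the alternating one, where 25.6% were. In the alternating component 1 of 74 passed, with a negative value, against 3.29% of all genes and 1.39% with a negative value. The medians were 0.0099 in the shared component, against 0.0069 over all genes, and -0.033 in the alternating one, against -0.0081. The count in the shared component was 6 of 74 without array 1 (6.39% of all genes in the same fit), 14 without array 3 (11.8%), 1 without array 2 (1.43%) and 1 without array 4 (1.63%). For the alternating component it was 15 without array 1 (18.4% of all genes), 12 without array 3 (12.7%), and 0 without array 2 (0.312%) or array 4 (0.553%). The number called among all genes thus moved with the array left out.

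None of 11 measured cyclins and cyclin-dependent kinases passed in limma, with 0 in the shared and 2 in the alternating component below an unadjusted p of 0.05. CDK4, the close relative of CDK6, was at -0.027 in the shared component, and CCND3, the other D-type cyclin, at -0.059 with array 1 at -0.55 and array 2 at 0.28. CCNE1, which acts after the D-type cyclins, was at 0.035. The largest statistics were those of MNAT1, a subunit of the CDK-activating kinase (-0.093, adjusted p = 0.376), and CCNE2 (-0.072). None of 4 measured inhibitors of these kinases passed in either component of the limma fit (2 in each below an unadjusted p of 0.05). CDKN2D, an inhibitor of CDK4 and CDK6, was positive on every array, from 0.13 to 0.20 (shared component 0.17, adjusted p = 0.073). CDKN1A (p21) and CDKN1B (p27) were at -0.11 each in the shared component and at -0.18 (adjusted p = 0.0532) and -0.26 (adjusted p = 0.0625) in the alternating one.

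In the RB and E2F family none of 15 measured genes passed in limma, with 1 in the shared and 3 in the alternating component below an unadjusted p of 0.05. E2F4, the closest relative of E2F5, was at -0.11 in the shared component and E2F1 at -0.067. E2F7 was at 0.091, the retinoblastoma gene RB1 at -0.087, and its relatives RBL1 and RBL2 at 0.032 and 0.041. Of 10 measured E2F target genes of S phase PCNA, the sliding clamp of DNA polymerase, passed with a positive value (0.40 ± 0.13, SD, n = 4; adjusted p = 0.00155). Only 1 of its clones carried this call. PCNA clone IMAGp998D0486 stood at 0.53, 0.98, 0.60 and 1.06, and the other, IMAGp998G104499, between -0.057 and 0.059. Clone IMAGp998D0486 also passed in the alternating component (-0.23, limma adjusted p = 0.0424), where 4.28% of all probes did. The average of PCNA did not pass there (-0.11, adjusted p = 0.156). MCM6, a subunit of the replicative helicase, was positive on every array, from 0.13 to 0.26 (shared component 0.19, adjusted p = 0.0627).

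Around CDC34, 1 of 11 measured genes passed. CKS2, a small subunit that binds cyclin-dependent kinases, was negative on every array, from -0.38 to -0.15 (shared component -0.26 ± 0.095, SD, n = 4; limma adjusted p = 0.019). CUL1, the scaffold of SCF ligases, was at 0.0058 over 3 clones, and UBA1, the activating enzyme upstream of CDC34, at 0.13 (adjusted p = 0.187). Leaving out array 2 (adjusted p = 0.0761), array 4 (0.139) or the dye term (0.0891) ended the CKS2 call. Among 5 measured genes of the switch that CDC25A belongs to none passed in limma (1 in each component below an unadjusted p of 0.05). CDC25B, the related phosphatase, was at 0.11 and the checkpoint kinase CHEK1 also at 0.11.

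In the MYC network none of 9 measured genes passed in limma (2 in the shared and 1 in the alternating component below an unadjusted p of 0.05). MYCBP2, a ubiquitin ligase named for binding MYC, was at 0.21 (adjusted p = 0.123) and MYCN at 0.13. Of 9 measured MYC target genes NME1, a nucleoside diphosphate kinase, passed with a negative value (-0.25 ± 0.12, SD, n = 4; adjusted p = 0.0155), from -0.39 to -0.15 on the 4 arrays. Leaving out array 2 (adjusted p = 0.102), array 4 (0.101) or the dye term (0.122) ended this call. CAD, an enzyme of pyrimidine synthesis, was at -0.17 with array 1 at -0.43. By dye orientation NPM1, a nucleolar protein, passed (-0.22 ± 0.053; adjusted p = 0.0395). It stood at -0.19 and -0.30 on arrays 1 and 3 and at 0.19 and 0.21 on arrays 2 and 4, and its 2 clones gave -0.20 and -0.24. This call too ended when array 2 (adjusted p = 0.168), array 4 (0.173) or the shared term (0.0968) was left out.

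**Figure D4:**
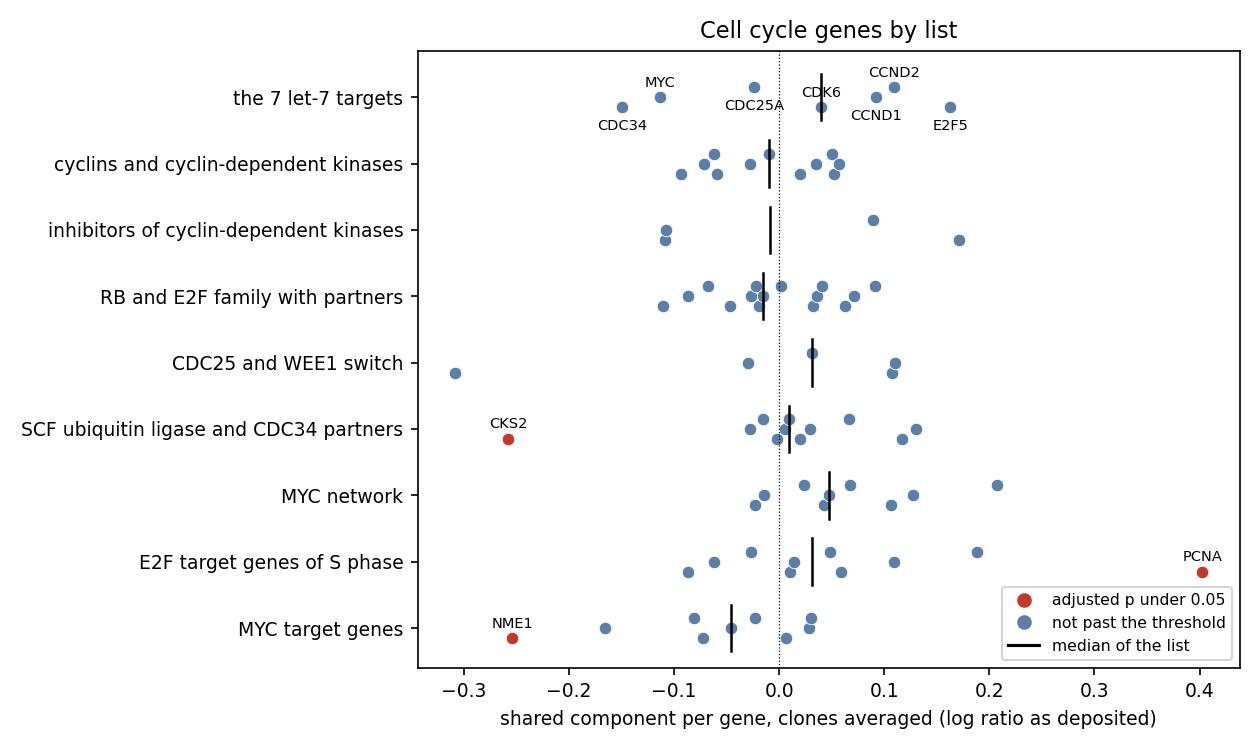
Shared component per gene, averaged over clones (x axis, log ratio as deposited), for the 7 let-7 targets and 8 lists of cell cycle genes (rows); black ticks are list medians and red points passed an adjusted p of 0.05 in limma. None of the 7 targets is red, and CKS2 (-0.26), PCNA (0.40) and NME1 (-0.25) are the red points of the lists.

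The probes of other genes nearest to the called CDK6 clone were found by the Euclidean distance over the 4 log ratios, among 20960 probes with 1 symbol. They were TFPI (0.53, 0.54, 0.37 and 0.55 on arrays 1 to 4; distance 0.19), LRATD2 (distance 0.23) and SULT2B1 (distance 0.25). All 3 had their lowest value on array 3, as the CDK6 clone did. They were picked for closeness over these same arrays, so this likeness partly follows from the choice. For E2F5 clone IMAGp998E044604 the nearest probes were PKP4 (0.46, -0.26, 0.36 and -0.23; distance 0.07), SPPL3 (distance 0.072) and NECTIN1 (distance 0.074). Likeness over 4 arrays is a description of these values.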

How the data were processed

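The series table holds 1 log ratio per probe and array for 4 two-colour cDNA arrays. The authors deposited log ratios made from GenePix scanner files in ArrayMagic with VSN, a variance-stabilizing normalization, per the design text, which names no software version, spot filter or spot averaging. Variance stabilization compresses the ratios of dim spots, and the table holds no intensities, so background correction, a filter on dim probes and a slide block could not be tried. Probes were named through the platform annotation: 20976 had 1 symbol, 848 several and 4805 none; 20963 matched the GRCh38.p14 gene table by gene ID, which changed 0 symbols.

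The deposited log ratios were fitted in limma 3.58.1 (R 4.3.3) with a shared and a dye-orientation coefficient, leaving 2 residual degrees of freedom, moderated by empirical Bayes. P-values are two-sided and were adjusted by Benjamini-Hochberg across all probes, all genes (mean of clones) or all clones of genes with 2 or more, at 0.05. Intervals are moderated 95% intervals, and SDs are over the 4 arrays, sign-turned for the alternating component. The fit was tested on simulated data.

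Named genes are all clones of the 7 genes, list genes past the threshold, the 2 with the largest moderated statistic of the shared component per list, and fixed partners. The 7 genes and the lists were chosen with earlier results of these data known. Tried as alternatives were a fit of each component without the other, centring on the median, quantile normalization and no or robust moderation (statmod 1.5.0). The first of these had no dye term for the shared component and no shared term for the alternating one. Also tried were probes with 1 symbol, the median of clones, a threshold of 0.1 and leaving out each array. Plots were made in Python 3.11.15 (matplotlib 3.10.9).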

Additional observations from a re-analysis of the deposited data

Results flagged for a closer look

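Among the 44 sets of 4 array values examined (the 16 clones, the averages of CDK6 and E2F5, and the 26 named genes of the lists), 2 had an array set apart by more than Dixon's 95% critical share of the range, where chance gives about 1 in 20. In CDK6 clone IMAGp998P203558 array 4 (-0.019) stood apart from the other 3 (-0.23 to -0.20), with a gap of 0.896 of the range. In the CDK6 average over 8 clones array 3 (-0.079) stood apart from the others (0.071 to 0.094), with a gap of 0.868.

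The dye orientations were compared in the same 44 sets by the test of the alternating component in limma. They differed for E2F5 clone IMAGp998E044604 (0.304, adjusted p = 0.0202) and, averaged over clones, for NPM1 (-0.222, adjusted p = 0.0395). The cause was not tested.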

How the results depend on the processing

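Among 980 refits of single clones and genes under 11 alternatives, 889 kept direction and side of the threshold, 20 calls were lost, 29 were gained and 42 values that were not called changed sign. Of the calls lost 9, and of those gained 27, came from leaving out an array. No called value changed sign. Median centring, quantile normalization, robust moderation and restriction to probes with 1 symbol left every count printed here within 1.5 times.

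The member clones called in the shared component numbered 2; this was 0 without moderation and 1 to 2 when an array was left out. In the alternating component 1 became 0 without the shared term, 0 without moderation, 2 at an adjusted p of 0.1 and 0 to 1 when an array was left out. The genes called in the shared component numbered 0, but 1 with the median of clones, 1 at 0.1 and 0 to 3 when an array was left out; in the alternating component 0 to 1 when an array was left out. The clones that differed from the other clones of their gene numbered 1 in the shared component, 2 at 0.1 and 1 to 3 when an array was left out. In the alternating component they numbered 2, with 0 to 2 when an array was left out. Shares of all genes with the median of clones or at 0.1, and of all clones tested under these alternatives, are not given here.

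Of the listed cell cycle genes 3 were called in the shared component, 1 without the dye term, 0 without moderation, 5 at 0.1 and 1 to 14 when an array was left out. In the alternating component 1 was called, 0 without the shared term, 0 without moderation, 2 with the median of clones, 7 at 0.1 and 0 to 15 when an array was left out. The shares of all genes passing in these fits are not given here, except where an array was left out. Counted over probes and not genes, all probes called in the shared component numbered 550. They were 231 without the dye term, 0 without moderation, 867 at 0.1 and 271 to 884 when an array was left out. In the alternating component they numbered 1141, and 102 without the shared term, 4 without moderation, 3154 at 0.1 and 113 to 1874 when an array was left out. The cause was not tested. With 4 arrays the number of arrays limits precision. Each log ratio already sets a let-7a-3 culture against a parental culture on the same array, so the fit is itself paired and has no further block.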

Other observations

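WEE1, the kinase whose inhibitory phosphates CDC25 phosphatases remove, is named here after its values were seen. Its clone IMAGp998L194863 stood at -2.29 on array 3 and at -0.033, -0.16 and -0.24 on arrays 1, 2 and 4, while its other clone, IMAGp998F06340, stood between -0.090 and 0.22. The average of both on array 3 was -1.19, and the gene did not pass in the shared component (-0.31 ± 0.59, SD, n = 4).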
